A study of Mus musculus with 55 samples.

Results

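The comparison was of mouse oocytes with and without DRB, over the 6 deeply sequenced RNA libraries of an 8-library experiment; the whole series has 55 samples. Members were chosen by the column labels: c replicates 1 and 2 and rhau-sko replicate 5 carry no DRB label, and c replicate 3 and rhau-sko replicates 7 and 8 carry it. The libraries labelled c replicate 4 with DRB and rhau-sko replicate 6 held 129192 and 127927 counts and were left out. All are polyA RNA libraries of oocytes from the ovary, and the protocol of the samples names oocytes in growth, taken from control mice and from mice labelled Dhx36fl/fl;SKO. The label c was read as control and rhau-sko as the Dhx36 mutant, since RHAU is another name of DHX36. The labels do not expand SKO, do not name the Cre driver, the strain or the age, and give no dose or duration for DRB and no vehicle for the libraries without it. They do not say whether libraries are separate animals or pools of oocytes, so p-values here measure the spread between these libraries, which may be technical.

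DRB is a nucleoside analogue that blocks CDK9, the kinase of the elongation factor P-TEFb. RNA polymerase II pauses soon after it starts a gene, and P-TEFb releases it by phosphorylating the polymerase and the pausing factors DSIF and NELF; without release, new transcripts of most genes stop early, and what remains in the cell is RNA made before. The steady-state level of a transcript under such a block therefore falls at the pace of its decay, and short-lived messages such as immediate early genes are the usual first to go in cultured cells. Growing oocytes transcribe actively and store much of their mRNA in a stable form for use after transcription ceases. The comparison asks which transcripts of the oocyte depend on continued CDK9-driven elongation.

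The 6 libraries held 23010562 to 40968105 counts. Dhx36, the targeted gene, stood at 46.9 and 42.2 CPM (counts scaled to a common library total) in c and 39.2 in c with DRB, against 7.63 in rhau-sko and 4.43 and 5.68 in rhau-sko with DRB, so each library followed its genotype label. The 20 oocyte markers summed to 21270 to 27818 CPM without DRB and 21345 to 30873 CPM with it, and all 20 were detected. Of 23 granulosa and cumulus markers 11 passed 1 CPM in any library, and the list summed to 725 to 958 CPM without DRB and 715 to 864 CPM with DRB, with Amh at 0. Theca and stroma markers summed to 40.8 to 56.9 and 35.9 to 64.6 CPM (Col3a1, Insl3 and Tcf21 at 0), and immune, endothelial and blood markers to 67.3 to 92.1 and 52.2 to 96.9 CPM (C1qa, Hbb-b1 and Hba-a1 at 0). In the ranges of the sums the DRB and no-DRB libraries overlapped for each list. Serpine2 alone gave 634 to 800 CPM of the granulosa and cumulus sum, so that sum says little of the other markers. Among them Gja1 was 3.91 and 20.4 CPM in the c replicates and 7.39 and 44.3 CPM in the rhau-sko DRB replicates. Cyp19a1 was 29.7 to 65.5 CPM and Fshr 0.29 to 31.0 CPM over the 6 libraries. Fewer cells of a type and less RNA per cell cannot be told apart in such libraries.

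A single transcript stood far apart from the others. Herpud1, which encodes a ubiquitin-like protein of the endoplasmic reticulum membrane that serves the degradation of misfolded proteins, was 52.1 and 37.4 CPM in c and 2.93 CPM in c with DRB. In rhau-sko it was 53 CPM without DRB and 3.45 and 7.64 CPM with DRB. Every library with DRB lay below every library without it, in both genotypes, and the groups did not come near each other. With genotype in the model the fall was 3.57 on the log2 scale (SE 0.30), that is 11.8-fold, with a 95% interval of -4.22 to -2.91 and an adjusted p of 0.00208 by edgeR's quasi-likelihood test. The gene lies on mm9 chromosome 8 from 96910338 to 96919277, plus strand, with 2333 exonic bases in a span of 8940 bases. Of 16784 genes tested, Herpud1 was the only one that fell in this test at an adjusted p under 0.05, which is 0.00596% of them; 1085 genes (6.46%) were lower and 1014 (6.04%) higher at an unadjusted p under 0.05.

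The promoter of Herpud1 is shown because its transcript carried the clearest DRB response, beside that of Hspa5, a chaperone gene of the same stress pathway that differed much less, and that of Zscan4d, the gene with the next smallest p among those lower. Each line gives the 250 bases before the transcription start site, read 5′ to 3′ on the gene's strand from the RefSeq table of build GRCm38.p6. Capitals in Herpud1 mark the ER stress element II (ATTGG and CCACG separated by 1 base), capitals in Hspa5 the ER stress element (CCAAT and CCACG separated by 9 bases), and capitals in Zscan4d the TATA box letters TATAAA.
Herpud1, chr8:94386179-94386428, plus strand: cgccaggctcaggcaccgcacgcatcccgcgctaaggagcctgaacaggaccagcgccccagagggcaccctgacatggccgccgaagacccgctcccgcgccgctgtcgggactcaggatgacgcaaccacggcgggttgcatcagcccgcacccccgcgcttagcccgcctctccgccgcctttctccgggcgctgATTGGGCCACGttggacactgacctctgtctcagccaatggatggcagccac
Hspa5, chr2:34771840-34772089, plus strand: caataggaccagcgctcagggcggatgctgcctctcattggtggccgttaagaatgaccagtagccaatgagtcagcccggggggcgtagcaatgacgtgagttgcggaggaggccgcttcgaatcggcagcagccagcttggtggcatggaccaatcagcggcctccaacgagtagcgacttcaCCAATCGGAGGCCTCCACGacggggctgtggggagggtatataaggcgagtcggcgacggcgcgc
Zscan4d, chr7:11166149-11166398, minus strand: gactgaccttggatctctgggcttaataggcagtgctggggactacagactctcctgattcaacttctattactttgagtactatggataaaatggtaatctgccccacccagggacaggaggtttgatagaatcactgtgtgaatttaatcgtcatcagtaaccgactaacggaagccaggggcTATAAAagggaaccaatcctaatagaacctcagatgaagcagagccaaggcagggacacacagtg
The ER stress element II in Herpud1 began 52 bases before the start site. Over both strands it was found in 12 of 27025 promoter windows, which add the first 50 transcribed bases (0.0444%), and the ER stress element in 37 (0.137%). The window of Hspa5 held the latter at 65 bases before the start, and that of Creld2, another gene of the pathway, at 126 bases before it. The windows of Dnajb9 and Sdf2l1 held neither spelling. TATAAA was found in 15.7% of all windows, in 9.14% of those of the abundant genes lower with DRB at an unadjusted p under 0.05 and in 10.4% of those higher, against 9.31% of the 6002 windows matched to the 8518 genes averaging 3 or more in log2 CPM. These motifs for ER stress were chosen after the values of Herpud1 were seen, and a match describes the letters only.

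**Figure D1:**
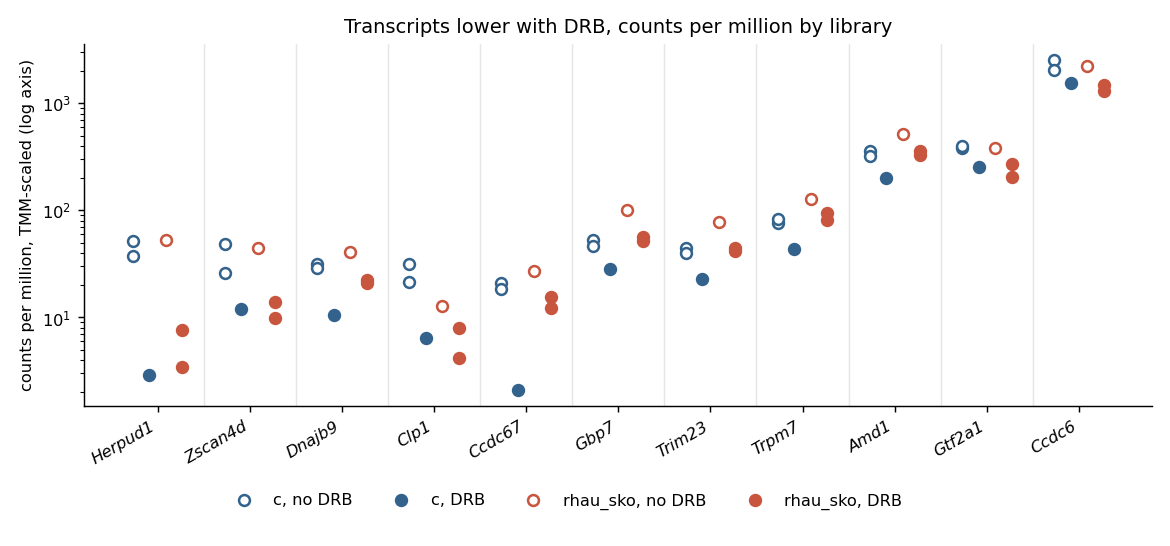
CPM (TMM-scaled, log axis) of 11 transcripts lower with DRB, 1 point per library; open points are libraries without DRB and filled points libraries with DRB, blue for c and red for rhau-sko. Within each genotype every filled point lies below every open one, and Herpud1 has the widest gap, from 37.4 to 53 without DRB to 2.93 to 7.64 with it.

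Other genes of the unfolded protein response, in which the endoplasmic reticulum signals an excess of unfolded proteins to the nucleus, mostly had small differences. Dnajb9 (ERdj4), a co-chaperone of the lumenal chaperone BiP, was 31.9 and 29.1 CPM in c and 10.5 with DRB, then 40.6 in rhau-sko and 21.0 and 22.5 with DRB. Its difference was -1.21 (SE 0.18, edgeR adjusted p = 0.0589), with no overlap within either genotype. Sec23b, a coat protein of vesicles that leave the endoplasmic reticulum, was 16.3 and 10.3 CPM in c, 7.28 in c with DRB, 10.8 in rhau-sko and 4.59 and 4.41 with DRB, a difference of -1.06 (SE 0.24). Hspa5 (BiP) differed by -0.42 (SE 0.11), from 375 and 340 CPM to 295 in c and from 250 to 168 and 173 in rhau-sko. Its libraries with DRB were the lower ones in each genotype, by a small margin. Pdia4, a disulfide isomerase, differed by -0.09 (SE 0.13), Creld2 by 0.04 (SE 0.10) and Sdf2l1 by 0.32 (SE 0.19). The transcription factor genes Atf4, Xbp1 and Ddit3 differed by -0.03 (SE 0.15), -0.45 (SE 0.34) and -0.28 (SE 0.14). Atf4 went opposite ways in the genotypes, from 70.8 and 66.5 to 85.3 CPM in c and from 98.4 to 77.5 and 73.6 in rhau-sko. Of 38 tested genes of this response, a list drawn up after the values were seen, 1 (Herpud1) passed the adjusted threshold in edgeR. At an unadjusted p under 0.05, 5 were lower and 1 higher, beside 6.46% and 6.04% of all genes tested. The median was -0.11, beside 0.00 over all genes tested. DESeq2 also called Dnajb9 (adjusted p = 2.2e-07) and Hspa5 (adjusted p = 0.012), and limma-voom called Dnajb9 (adjusted p = 0.021).

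Among the genes next in order were transcripts of the Zscan4 and Usp17 families, which are switched on in early embryos and in a rare state of embryonic stem cells. Zscan4d, a zinc finger gene on mm9 chromosome 7 from 11746992 to 11751497, was 48.3 and 26.3 CPM in c and 12.1 with DRB. In rhau-sko it was 44.6 CPM, and 9.83 and 14.1 with DRB. The difference was -1.76 (SE 0.24, edgeR adjusted p = 0.0589), and all 3 libraries with DRB were below all 3 without. Usp17l5, a deubiquitinase gene, was 1.1 and 0.98 CPM in c and 0.41 with DRB, and 26.2 CPM in rhau-sko against 5.86 and 7.01 with DRB, a difference of -1.80 (SE 0.26, edgeR adjusted p = 0.0589). Dub1a, of the same deubiquitinase family, was 67.8 CPM in the single rhau-sko library without DRB and between 1.08 and 2.1 CPM in all the others, so its fitted difference of -3.28 (SE 0.83, edgeR adjusted p = 0.18) rests on that library. Zscan4c, a near copy, was 13.6 and 4.28 CPM in c, 3.74 in c with DRB, 4.69 in rhau-sko and 2.14 and 5.03 with DRB, and its groups overlapped in rhau-sko. Of 15 tested genes of the early embryonic list, 5 were lower (Zscan4d, Usp17l5, Dub1a, Zscan4b and Zscan4f) and 0 higher at an unadjusted p under 0.05. The median was -0.82. Of all genes tested 6.46% were lower and 6.04% higher. In this list 7 genes averaged 3 or more in log2 CPM, and 2 of these were lower. Zscan4b and Zscan4f were at about 1 CPM or less in each library. These families have near-identical copies, and how reads that match several copies were counted is not given, so the member each count belongs to is uncertain.

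The remaining genes with the smallest p had smaller differences, none past the adjusted threshold in the edgeR test. Gbp7, an interferon-inducible guanylate-binding GTPase, was 53.3 and 46.9 CPM in c and 28.3 with DRB, and 101 CPM in rhau-sko against 56.0 and 52.1 with DRB. Its difference was -0.86 (SE 0.12, edgeR adjusted p = 0.0589), and that of Trim23, an E3 ubiquitin ligase with a GTPase domain, was -0.85 (SE 0.13, edgeR adjusted p = 0.0589). Trim23 went from 44.1 and 40.5 CPM to 23.1 in c, and from 77.5 to 41.6 and 45.0 in rhau-sko. Both were lower by a like fold in each genotype. Libraries with and without DRB did not overlap within a genotype, but did across genotypes, since both genes stood higher in rhau-sko. Amd1, S-adenosylmethionine decarboxylase of polyamine synthesis, whose transcript and enzyme are short-lived, was 363 and 325 CPM in c against 203 with DRB, and 518 in rhau-sko against 361 and 331 with DRB (difference -0.67, SE 0.11, edgeR adjusted p = 0.0756). Its near copy Amd2 differed by -0.94 (SE 0.18), and reads of the pair could be split between them. Odc1 and Azin1, the decarboxylase that feeds the same pathway and its regulator, differed by -0.30 (SE 0.15) and -0.18 (SE 0.14). Of 13 tested genes of polyamine metabolism, a list drawn up after the values were seen, Amd1 and Amd2 were the 2 lower at an unadjusted p under 0.05. In that list 0 were higher, beside 6.46% lower and 6.04% higher over all genes tested.

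Among abundant transcripts the same rule named Ccdc6, a coiled-coil protein gene, at 2519 and 2064 CPM in c, 1554 in c with DRB, 2220 in rhau-sko and 1501 and 1319 with DRB (difference -0.61, SE 0.11, edgeR adjusted p = 0.113). Gtf2a1, the large subunit of the general transcription factor TFIIA, was 386 and 396 CPM in c and 254 with DRB, and 379 in rhau-sko against 205 and 271 (difference -0.65, SE 0.12, edgeR adjusted p = 0.127). Trpm7, a magnesium channel fused to a kinase, was 76.3 and 83.1 CPM in c, 43.3 with DRB, 127 in rhau-sko and 80.6 and 93.8 with DRB. Ccbl2, a kynurenine aminotransferase gene, was 68.5 and 66.7 CPM in c, 45.5 with DRB, 98.8 in rhau-sko and 52.7 and 62.6 with DRB. For each of these 4 genes all DRB libraries lay below all no-DRB libraries of their genotype. That ordering alone is common: it held for 2685 genes (16.0%) with DRB lower and 2779 (16.6%) with DRB higher.

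A stricter description, drawn up after the values were seen, asked that every library with DRB differ from every no-DRB library of its genotype by at least 1.5-fold, and looked only at abundant genes, here those averaging 3 or more in log2 CPM. In the lower direction 14 of 8518 genes met it (0.164%). Beside Herpud1, Dnajb9, Zscan4d, Gbp7, Trim23 and Amd2 they were Clp1, Klhl7, Ccdc67, Xaf1, Glt25d2, A830018L16Rik, 9130023H24Rik and Gm17445. Clp1, an RNA kinase of 3′-end processing and tRNA splicing, was 31.7 and 21.4 CPM in c, 6.49 in c with DRB, 12.9 in rhau-sko and 4.15 and 7.93 with DRB. Klhl7, an adaptor of a cullin ubiquitin ligase, was 7.72 and 6.57 CPM in c, 2.84 with DRB, and 96.2 in rhau-sko against 59.8 and 34.1, so it was lower by a like fold at very unequal levels. Ccdc67 (Deup1, of the structure that multiplies centrioles) was 20.9 and 18.6 CPM in c and 2.11 with DRB, but 27.1 in rhau-sko and 12.2 and 15.6 with DRB. Of the 14, 12 also passed the adjusted threshold in DESeq2 and 8 in limma-voom. Over all genes these tools were run on, they called 3.29% and 0.155%. All 553 DESeq2 calls averaged 3 or more in log2 CPM and did not overlap within either genotype. The 14 were picked from the same counts, so their passing is no separate evidence.

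In the higher direction 1 gene, C730034F03Rik, passed the adjusted threshold in edgeR (0.00596%). It was 0.19 and 0.37 CPM in c, 4.33 with DRB, 2.12 in rhau-sko and 36.4 and 12.2 with DRB, a difference of 3.69 (SE 0.44, edgeR adjusted p = 0.0330). The log2 change of C730034F03Rik was 3.25 to 3.93 without c replicate 1, c DRB replicate 3, rhau-sko replicate 5 or rhau-sko DRB replicate 7, and each of these fits ended the call, with edgeR adjusted p from 0.0592 to 0.156. It was not called by limma-voom (adjusted p = 0.0615) or without the genotype term, and DESeq2 gave it no adjusted p. The 1.5-fold description held for 13 genes in this direction (0.153%), and 4 of them passed in DESeq2 on the same counts. Slc7a14, a lysosomal transporter of cationic amino acids, was 0.67 and 0.89 CPM in c and 32.4 with DRB, and 0.85 in rhau-sko against 1.79 and 11.2. Sdc4, a cell-surface proteoglycan, was 8.10 and 6.48 CPM in c, 23.0 with DRB, 0.32 in rhau-sko and 10.6 and 22.9 with DRB. Both spread widely between libraries that share a label. The mitochondrial tRNA gene mt-Tq was 3.63 and 3.37 CPM in c, 8.16 with DRB, 12 in rhau-sko and 36.9 and 30.6 with DRB (difference 1.36, SE 0.19, edgeR adjusted p = 0.0589); it overlaps another tRNA gene on the opposite strand, and the strand setting of the counts is not given. The other 9 were Cc2d1a, Ino80b, Mrpl52, Pgp, Def6, Gm8666, AL627204.1, Cpne2 and Prodh2.

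For most abundant transcripts the interval of the difference was narrow. Every scaling used here is relative to the other genes of a library. A fall or rise shared by most messages would therefore not show in these differences. Among the 8518 abundant genes the median SE was 0.149, and for 8149 of them (95.7%) the 95% interval of the DRB difference lay inside 2-fold in both directions. By estimate alone 21 were lower and 20 higher by 2-fold or more. Of the 20 oocyte markers 4 were lower and 6 higher at an unadjusted p under 0.05, with a median of 0.07. Beside them, 826 of the 8518 abundant genes were lower and 746 higher, and 6.46% and 6.04% of all genes tested. Zp3, Mos and Btg4 were among the oocyte genes with estimates near 0. Zp3, a zona pellucida glycoprotein, was 2641 and 2500 CPM in c and 2890 with DRB, and 1285 in rhau-sko against 1166 and 1372, and the groups overlapped in rhau-sko (difference 0.08, SE 0.10). Mos, the kinase that arrests the mature egg, differed by 0.10 (SE 0.11) and Btg4, an adaptor of mRNA deadenylation, by 0.10 (SE 0.11). Gdf9, the growth factor that oocytes send to granulosa cells, was 3606 and 3478 CPM in c and 3863 with DRB, but 3007 in rhau-sko and 1933 and 2052 with DRB, so it was level in one genotype and lower in the other (difference -0.23, SE 0.13). Bmp15, its partner, showed the same layout, from 1479 and 1431 to 1451 CPM in c and from 1126 to 714 and 762 in rhau-sko.

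Immediate early genes, which are short-lived messages of the first response to signals, were present at low levels. Of 40 in the list 31 were tested. At an unadjusted p under 0.05, 0 were lower and 1 (Ctgf, a secreted matrix protein gene, now Ccn2) was higher, with a median of 0.07. Of all genes tested 6.46% were lower and 6.04% higher. Egr1, a zinc finger factor, was 7.62 and 11.7 CPM in c, 12.7 with DRB, 5.26 in rhau-sko and 5.51 and 4.44 with DRB. Ier2 was 2.00 and 1.82 CPM in c and 0.50 with DRB, and 1.04 in rhau-sko against 0.92 and 0.73, on 17 to 75 counts a library (difference -1.13, SE 0.57, edgeR adjusted p = 0.448). Jun stood at 1 to 28 counts a library and Myc at 0 to 39, where a change is not detectable at this depth. Mcl1, an anti-apoptotic gene with a short-lived message, was 15.1 and 15.4 CPM in c and 8.10 with DRB, but 20.9 in rhau-sko and 30.4 and 21.8 with DRB, so the estimates of the genotypes had opposite signs. Only 6 of the 31 were abundant.

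Genes of the kinase complex that DRB blocks had no member past the adjusted threshold in edgeR. In the list of P-TEFb, its 7SK inhibitors and related kinases, 2 of 20 tested were lower and 0 higher at an unadjusted p under 0.05, with a median of -0.01. That count leaves out 7SK RNA itself. The feature named 7SK, placed on 20 chromosomes, differed by 0.36 (SE 0.16, edgeR adjusted p = 0.383). It was 12.9 and 14.6 CPM in c and 19.4 with DRB, and 24.4 in rhau-sko against 30.9 and 26.6. Cdk9, the kinase subunit, was 6.41 and 4.41 CPM in c, 5.18 with DRB, 9.88 in rhau-sko and 6.25 and 7.27 with DRB. Ccnt1, its cyclin, differed by -0.16 (SE 0.17). Ccnt2, the alternative cyclin, was 70.2 and 65.6 CPM in c and 64.9 with DRB, and 112 in rhau-sko against 73.2 and 75.5 (difference -0.33, SE 0.13, edgeR adjusted p = 0.348). Hexim1, the inhibitor that holds P-TEFb in the 7SK particle, had only 14, 30 and 6 counts without DRB and 0, 0 and 12 with DRB. Larp7 and Mepce, which stabilise 7SK RNA, differed by 0.04 (SE 0.12) and 0.10 (SE 0.16). Mepce went opposite ways in the genotypes, from 40.1 and 40.3 to 56.1 CPM in c and from 57.1 to 46.6 and 47.8 in rhau-sko. For the elongation and pausing factors 2 of 32 were lower (Eaf1 and Ell2) and 2 higher (Supt5h and Rtf1). Supt5h, the large subunit of DSIF, was 25.4 and 24.5 CPM in c and 38.8 with DRB, and 16.9 in rhau-sko against 26.2 and 17.4. For RNA polymerase II and the general factors 3 of 43 were lower and 6 higher. The higher ones were the small polymerase subunits Polr2f, Polr2i, Polr2j and Polr2l, with Gtf2f1 and Gtf2h5. Beside the counts of these lists, 6.46% of all genes tested were lower and 6.04% higher. Among the 8518 abundant genes 826 were lower and 746 higher.

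The lists with the highest share of members at an unadjusted p under 0.05 were housekeeping classes. Of 82 tested cytosolic ribosomal protein genes 49 were higher with DRB and 0 lower at an unadjusted p under 0.05, beside 6.04% and 6.46% of all genes tested, and 80 had a difference above 0. Their median was 0.35, relative to the other genes of a library. Rplp2, a protein of the ribosomal stalk, was 99.8 and 102 CPM in c and 150 with DRB, and 66 in rhau-sko against 121 and 104. Rps20, of the small subunit, was 48.5 and 50.4 CPM in c and 71.0 with DRB, and 37.6 in rhau-sko against 63.7 and 60.6. Neither overlapped between DRB and no DRB within a genotype. Of 84 tested nuclear genes of oxidative phosphorylation, the mitochondrial respiratory chain and ATP synthase, 47 were higher and 0 lower, with a median of 0.34. Cox6a1, a subunit of cytochrome oxidase, was 184 and 202 CPM in c and 262 with DRB, and 178 in rhau-sko against 283 and 255. No gene of these lists passed the adjusted threshold in edgeR, while Rplp2 passed it in DESeq2 (adjusted p = 3.1e-05) and limma-voom (adjusted p = 0.0410) and Rps20 in DESeq2 (adjusted p = 0.00026).

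The opposite side held zinc finger genes. Of 303 tested genes named Zfp, a class rich in DNA-binding repressors, 52 were lower and 3 higher at an unadjusted p under 0.05, with a median of -0.20. Zfp473 was 74.1 and 66.8 CPM in c and 50.3 with DRB, and 116 in rhau-sko against 64.6 and 67.5. Zfp295 was 441 and 387 CPM in c and 273 with DRB, and 292 in rhau-sko against 230 and 205. Of 52 tested chromatin and DNA methylation regulators 11 were lower and 4 higher, with a median of -0.08. Over all genes tested 6.46% were lower and 6.04% higher, and among the 8518 abundant genes 826 were lower and 746 higher. Kdm1b, the histone demethylase needed for imprint setting in oocytes, was 210 and 181 CPM in c and 166 with DRB, and 371 in rhau-sko against 248 and 255 (difference -0.40, SE 0.11). Of 41 meiotic maturation genes 6 were lower and 1 higher. They included Mastl, the Greatwall kinase of meiotic entry, at 449 and 426 CPM in c and 320 with DRB, and 470 in rhau-sko against 332 and 382, and Dazl, an RNA-binding translational activator, which differed by -0.34 (SE 0.11). Maternal effect genes went both ways, 5 of 30 lower and 6 higher, and so did oocyte transcription factors, 3 of 24 lower and 4 higher.

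Further lists had these counts, beside 6.46% lower and 6.04% higher over all genes tested. Among abundant genes the shares were larger, 826 lower and 746 higher of 8518. Several lists were mostly abundant, such as 39 of the 42 splicing factors and 40 of the 43 DNA damage genes. Of 26 tested targets of p53, whose messages respond early to transcription blocks in cultured cells, 0 were lower and 1 (Bax, a promoter of apoptosis) was higher at an unadjusted p under 0.05. For NF-kB feedback genes and other short-lived regulators 3 of 44 were lower and 1 higher, and for heat shock and stress genes, a list that holds Herpud1, 4 of 35 and 2. Factors of mRNA storage and decay, which govern how long maternal messages last, had 5 of 48 lower and 4 higher. Splicing factors had 4 of 42 lower and 3 higher, DNA damage genes 5 of 43 and 4, and G-quadruplex and R-loop helicases, the class of DHX36 itself, 6 of 35 and 3. The share lower was 17.1% for the helicases and 17.2% for the Zfp genes, but these lists differed otherwise. The share higher was 8.57% and 0.99%, and the medians were -0.04 and -0.20. Of the helicases 33 were abundant and 6 of these were lower, and of the Zfp genes 158 were abundant and 41 of these were lower. Translation initiation factors had 3 of 38 lower and 4 higher and proteasome subunits 0 of 38 and 3. Replication-dependent histone genes, whose messages lack a polyA tail, had 0 of 33 in either direction. Only 2 of these 33 were abundant, and 24 had a difference above 0 and 9 below (median 0.19). Zona and oocyte-secreted factors had 1 of 14 lower (Bmp15) and 2 higher.

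**Figure D2:**
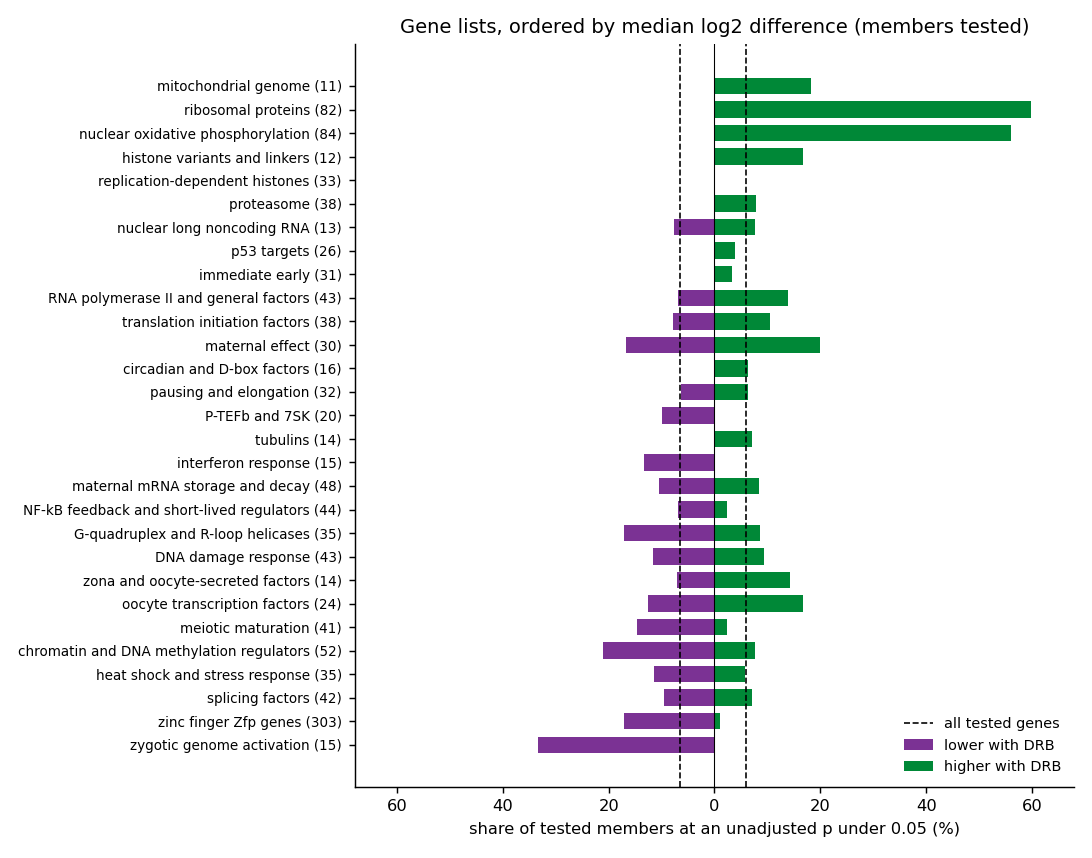
Share of tested members of each gene list (members tested in brackets) at an unadjusted p under 0.05, lower with DRB to the left and higher to the right, with dashed lines at the shares of all genes tested (6.46% and 6.04%). Ribosomal protein and nuclear oxidative phosphorylation genes reach furthest right (49 of 82 and 47 of 84), and the early embryonic list, with 5 of 15, furthest left.

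The list medians were set beside the difference between replicates. Between c replicates 2 and 1 the ribosomal protein median was 0.04 and the Zfp median -0.04, and between rhau-sko DRB replicates 8 and 7 they were -0.17 and 0.07. Between a DRB library and a no-DRB library of its genotype the ribosomal protein median was 0.24 to 0.27 in c and 0.38 to 0.55 in rhau-sko. For oxidative phosphorylation genes it was 0.19 to 0.20 in c and 0.45 in both pairs of rhau-sko, against 0.03 and 0.01 between replicates. For Zfp genes it was -0.22 in both pairs of c and -0.17 and -0.15 in rhau-sko. All 4 pairs thus had the same sign for each of these 3 lists, but they share libraries and count as 1 contrast per genotype. Without rhau-sko replicate 5 the number of higher ribosomal protein genes was 21 of 82 and that of oxidative phosphorylation genes 21 of 84, with medians of 0.25 and 0.20; with the 2 shallow libraries included the numbers were 10 and 9. Without rhau-sko DRB replicate 8 72 of 299 Zfp genes were lower, and without c DRB replicate 3 34 of 303. In each of these fits, as under library size alone, RLE and upper-quartile scaling, the 3 medians kept their sign.

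**Figure D3:**
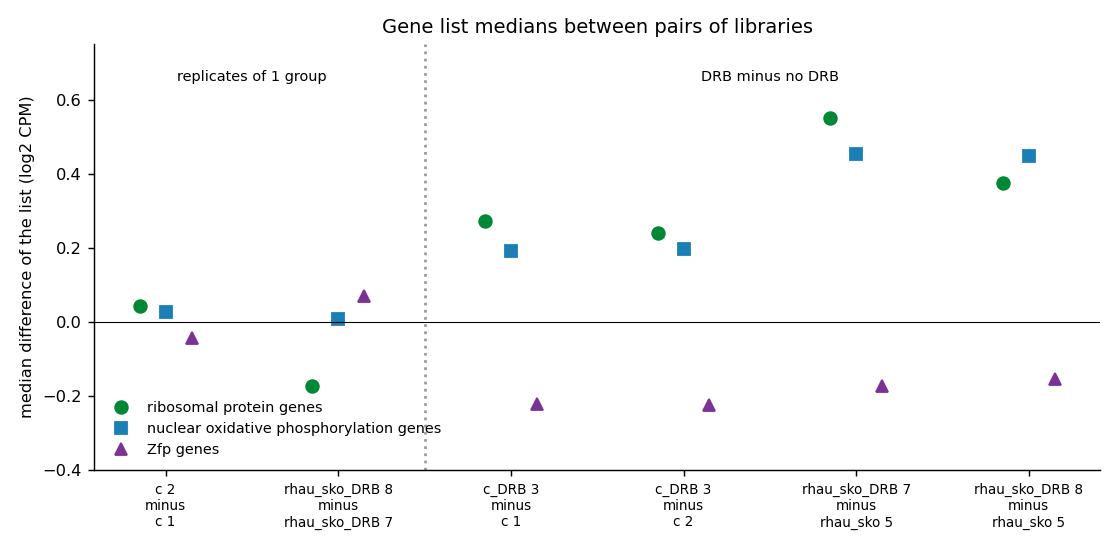
Median difference in log2 CPM of ribosomal protein, nuclear oxidative phosphorylation and Zfp genes between pairs of libraries; the 2 pairs on the left are replicates of 1 group, the 4 on the right are DRB minus no DRB within a genotype. Ribosomal protein medians are -0.17 and 0.04 on the left and 0.24 to 0.55 on the right, and Zfp medians are below 0 in all 4 pairs on the right.

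The DRB difference also varied with gene length. Among the abundant genes the median DRB difference was 0.23 for 443 genes with 500 to 1000 exonic bases and -0.13 for 1035 genes with over 8000, and it was lower in each longer class between them. By genomic span it went from 0.20 for 352 genes of up to 2 kb to -0.11 for 516 genes of over 200 kb. In the shortest of these span classes 27.0% of genes were higher and 3.98% lower at an unadjusted p under 0.05, and in the longest 1.16% and 12.2%. Spearman's rho across 8515 genes was -0.32 with span and -0.32 with exonic length; with the other length held it was -0.16 for each. Genes are not independent replicates, and they share these 6 libraries. The median exonic length was 1439 bases for the ribosomal protein list, 1240 for oxidative phosphorylation and 3692 for Zfp genes, against 3135 over all genes tested. By genomic span the medians were 3.24, 7.59 and 15.5 kb against 20.3 kb, so Zfp genes, though lower with DRB, were longer than the median gene in exons and shorter in span. Herpud1, Dnajb9 and Zscan4d, at 2333, 1865 and 1992 exonic bases, were thus shorter than the median gene and lower with DRB.

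Both genotypes had the slope, with medians of 0.12 and -0.08 in c and 0.33 and -0.19 in rhau-sko for the exonic classes of 500 to 1000 and over 8000 bases. Replicates of 1 group differed by length too: rho with exonic length was -0.13 between c replicates 2 and 1 and -0.18 between rhau-sko DRB replicates 8 and 7. Between DRB and no-DRB libraries it was -0.19 and -0.13 in c and -0.23 and -0.39 in rhau-sko. By exonic length the 2 pairs in c thus lay near the values of replicates. With genomic span rho was -0.04 and -0.15 between these replicates, -0.20 and -0.19 in c and -0.21 and -0.35 in rhau-sko. By span every DRB pair thus lay below both replicate pairs, though the DRB pairs share libraries. The share of mitochondrial counts was also unequal, 0.400% ± 0.231 (SD, n = 3) with DRB and 0.187% ± 0.0994 (SD, n = 3) without (two-sided exact permutation test, p = 0.20, where the smallest p this design allows is 0.10). In the mitochondrial genome list 2 of 11 tested genes were higher and 0 lower at an unadjusted p under 0.05, beside 6.04% and 6.46% of all genes tested. The median of that list differed by 0.97 between the rhau-sko DRB replicates themselves. The part of the mitochondrial share of counts in the length pattern was not tested.

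**Figure D4:**
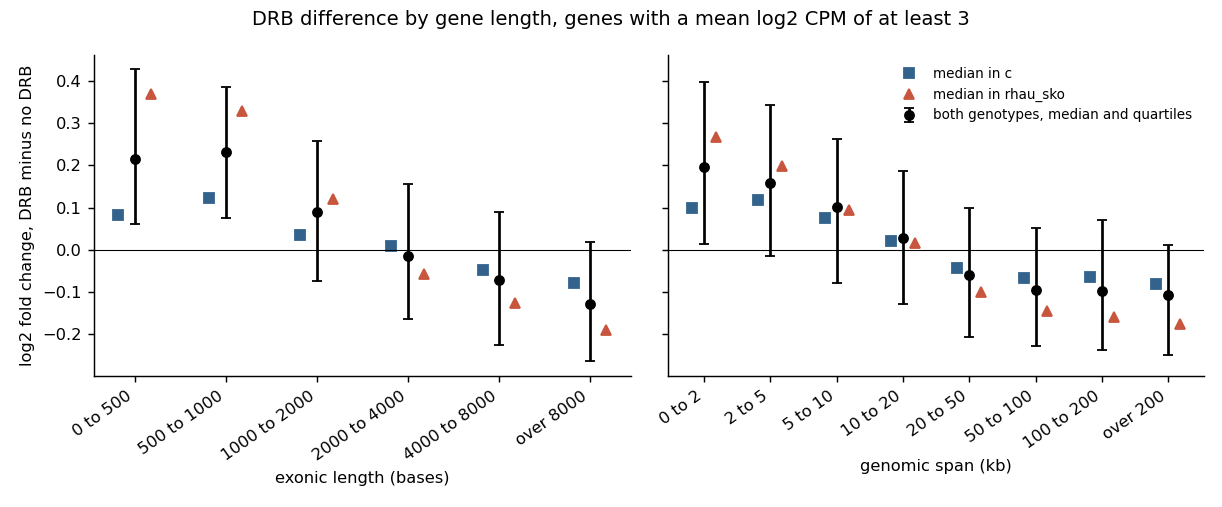
Median log2 fold change of DRB minus no DRB by exonic length (left, bases) and genomic span (right, kb) in abundant genes; black points and bars are the median and quartiles over both genotypes, blue squares the median in c and red triangles that in rhau-sko. Medians go from above 0 in short genes to below 0 in long genes, 0.23 to -0.13 between the exonic classes of 500 to 1000 and over 8000 bases.

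The DRB differences in the 2 genotypes are separate readings, since they share no library. Their tests are not separate, since both take the spread from the same fit over all groups. Within c, 1 library with DRB against 2 without, 7 of 18178 genes passed the adjusted threshold (0.0385%), and within rhau-sko, 2 against 1, 6 did (0.0330%). Herpud1 was in both, with differences of -3.93 (SE 0.45, edgeR adjusted p = 0.0174) in c and -3.27 (SE 0.36, edgeR adjusted p = 0.0127) in rhau-sko. The others in c were Gm15859, 1700047I17Rik2, Terf2ip, Ccdc67, AL627204.1 and Xaf1, and in rhau-sko Dub1a, Gm12992, Sdc4, Spry2 and Id2. The direct test of whether the DRB difference depended on genotype called 6 genes (0.0330%): Dub1a, Terf2ip, Spry2, 1700047I17Rik2, Gm15859 and Gm12992. In each of these contrasts some group is a lone library, which is assumed to vary like the others.

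Across 8518 abundant genes the DRB difference in c and that in rhau-sko had Pearson's r of 0.25, and 60.2% of genes had the same sign. Over 4823 genes averaging 5 or more these were 0.34 and 64.0%, and over all genes tested 0.07 and 56.7%. Of the 100 genes lowest in c 59 were below 0 in rhau-sko, with a median of -0.14 there beside -1.06 in c, and of the 100 lowest in rhau-sko 74 were below 0 in c. Of the 100 highest in c 67 were above 0 in rhau-sko, and of the 100 highest in rhau-sko 61 were above 0 in c. Genes at the extremes of one genotype were thus mostly near 0 in the other.

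**Figure D5:**
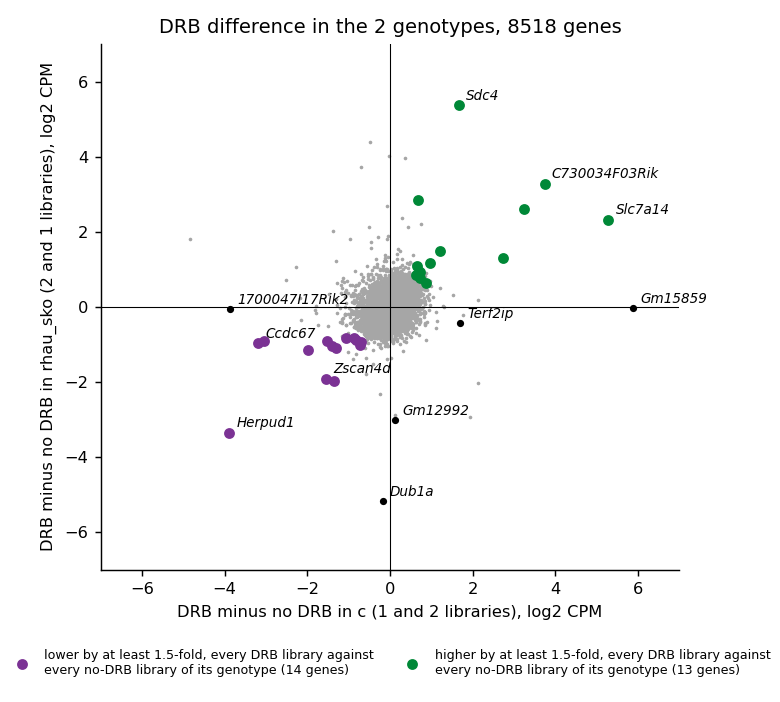
DRB minus no DRB in log2 CPM for 8518 genes, c on the x axis (1 library against 2) and rhau-sko on the y axis (2 against 1); purple and green mark the 14 and 13 genes that differ by at least 1.5-fold in every pair of libraries of both genotypes. Herpud1 lies far out on both axes, while Dub1a and Gm12992 lie far out on the y axis and 1700047I17Rik2 and Gm15859 on the x axis.

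The DRB difference was small beside that of genotype. In the same fit 6043 genes passed the adjusted threshold for genotype, and the median absolute difference was 0.55 for genotype and 0.24 for DRB. Between single libraries the median absolute difference in log2 CPM over abundant genes was 0.12 for the c replicates and 0.20 for the rhau-sko DRB replicates. It was 0.19 to 0.20 between DRB and no DRB in c, and 0.25 in rhau-sko. In rhau-sko, pairs of DRB and no-DRB libraries thus stood further apart than either pair of replicates. In c they stood further apart than the c replicates and about as far as the rhau-sko DRB replicates. Libraries of different genotype stood further apart still, at 0.38 to 0.46.

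Genes lower with DRB were read in 3 other experiments of the series, which share no library with this comparison: growing oocytes with Dhx36 sko against control, oocytes labelled GV with the G-quadruplex ligand cPDS against GV_C, and oocytes labelled Trim21 against control at 3 h, each with 3 libraries a group. Herpud1 was 0.17 ± 0.20 CPM (SD, n = 3) in growing controls and 0.84 ± 0.67 in growing sko oocytes. It was 1.01 ± 0.07 CPM in GV controls and 10.7 ± 5.26 after cPDS, and in the edgeR fits of those experiments it was higher in sko by 2.21 (SE 0.80, edgeR adjusted p = 0.0289) and with cPDS by 3.38 (SE 0.28, edgeR adjusted p = 8.2e-08). The no-DRB libraries here, at 37.4 to 53 CPM, were above all those groups, a difference between experiments that has no test. Dnajb9 was 5.86 ± 1.41 CPM in growing controls and 13.3 ± 0.75 in sko, and 17 ± 1.51 in GV controls and 7.21 ± 1.06 with cPDS, below the 29.1 to 40.6 CPM of the no-DRB libraries. Gbp7 was 13.5 ± 3.32 CPM in growing controls and 62.9 ± 5.14 in sko, and Trim23 20.7 ± 5.60 and 58.3 ± 9.95. With cPDS Trim23 was lower, 34.9 ± 3.84 CPM in GV controls and 27.5 ± 2.32 (log2 difference -0.35, edgeR adjusted p = 0.0090), and Gbp7 was 38.0 ± 4.28 and 41.9 ± 4.40 (0.14, edgeR adjusted p = 0.28).

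Of the 14 genes lower by 1.5-fold in both genotypes 12 were tested in growing oocytes, and 10 of them were called higher and 0 lower in sko. Over all 8470 abundant genes tested there 25.8% were called higher and 32.3% lower, and of all genes with counts there 28.5% and 25.2%. With cPDS 5 of the 14 were called higher and 3 lower, and with Trim21 4 of 13 and 1. Of the 826 abundant genes lower with DRB at an unadjusted p under 0.05, 822 were tested in growing oocytes, and 44.2% were called higher and 18.7% lower in sko. With cPDS 51.1% were called higher and 19.5% lower, beside 33.8% and 35.1% of abundant genes (23.4% and 27.4% of all genes tested), and with Trim21 15.2% and 3.31%, beside 7.85% and 5.39% (6.26% and 5.23% of all genes tested). Across abundant genes Pearson's r between the DRB difference and that of the other experiment was -0.19 for sko, -0.21 for cPDS and -0.14 for Trim21. Spearman's rho of these 3 differences with genomic span was 0.11, 0.12 and 0.10, opposite in sign to that of DRB; the part of gene length in the correlations was not tested.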

How the data were processed

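The deposited table holds counts per gene, whole numbers that the authors made from polyA RNA reads, for 33924 genes. Per the submitters' processing notes the series used fastp 0.21.0, cutadapt 1.15, HISAT2 2.1.0, STAR 2.5.2b, featureCounts 2.0.1 and build mm9; which of them made this table, and how strand and multi-mapping reads were handled, is not given in the sources used here. Gene positions come from the table, per the file headers. The table names 99 genes on several chromosomes, and 25 symbols that a spreadsheet had turned into dates were restored. Promoters are from a RefSeq table (GRCm38.p6), matched by symbol to 10687 of 16784 tested genes.

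Counts were fitted with edgeR 4.0.16 (R 4.3.3): TMM scaling, filterByExpr with a minimum count of 10, the quasi-likelihood test with DRB and genotype as terms, and Benjamini-Hochberg adjustment across the whole tested table, at a threshold of 0.05. CPM are TMM-scaled, except marker sums, which use total counts. SEs are the fold change divided by the square root of F. A second fit with 1 group per genotype and treatment gave the DRB change within c, within rhau-sko and their difference. Genotype is uneven over DRB (2 and 1 libraries without, 1 and 2 with). Residual degrees of freedom were 3 in the fit with DRB and genotype as terms and 2 in the second fit. Replicate pairs of a group differed beyond sampling noise (chi-square per gene of 16.7 and 28.2), so none was merged. Alternatives were library size, RLE and upper-quartile scaling, DESeq2 1.42.0, voom in limma 3.58.1, other filters, no genotype term, all 8 libraries, and leaving out each library. The scripts were tested on simulated data.

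Named genes were those past the adjusted threshold, the genes fixed by list, those of the genotype test, and the 10 of smallest p in each direction. These 10 were taken among abundant genes whose symbol is not a clone, predicted-gene or numeric name. Overlap within a genotype was not part of that rule. Other names, the unfolded protein response and polyamine lists, the 1.5-fold description and the ER stress elements were chosen after their values were seen. The members and all lists were chosen with earlier results of these data known. The mean ± SD and the intervals cover these libraries, and low counts carry counting error in addition. Fits of the 3 other experiments used the same steps in their own libraries, so levels between experiments were normalized separately.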

Additional observations from a re-analysis of the deposited data

Results flagged for a closer look

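For 6 genes the DRB difference depended on genotype in edgeR's test of the difference itself. Each value below is the DRB change in rhau-sko minus that in c on the log2 scale. Dub1a (-5.05) was 67.8 CPM in the rhau-sko library without DRB and 1.08 to 2.1 CPM in the other 5 libraries. Gm12992 (-3.17) had the same layout, 37.5 CPM in that library and 3.15 to 4.59 CPM in the others. For these genes the value rests on rhau-sko replicate 5, which has no replicate of its own. Spry2 (4.75), an inhibitor of receptor tyrosine kinase signalling, was 14.1 and 14.4 CPM in c and 3.95 with DRB, but 0.76 in rhau-sko and 5.77 and 5.80 with DRB, so it went opposite ways. Terf2ip (-2.16), a telomere protein of the shelterin complex, was 19.6 and 19.1 CPM in c and 63.0 with DRB, and 157 in rhau-sko against 115 and 117. 1700047I17Rik2 (3.87) was 21.5 and 20.8 CPM in c and 1.37 with DRB, against 21.8 to 30 CPM in all rhau-sko libraries. Gm15859 (-6.04) was 0.43 and 0.10 CPM in c and 16.6 with DRB, against 9.4 to 12.1 CPM in rhau-sko. For these last 3 the value rests on c DRB replicate 3, again a lone library. No group had 4 or more libraries, so single libraries could not be tested as outliers.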

How the results depend on the processing

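The count of genes past the adjusted threshold for DRB, 2 in edgeR, was 553 in DESeq2, 26 in limma-voom, 492 without a filter on low counts (7 of them under the filter), 9 with at least 1 CPM in 3 libraries and 0 without the genotype term, where edgeR had 336 higher and 278 lower at an unadjusted p under 0.05. Leaving out each library gave 1 to 8. Within c the count of 7 became 13 with library size alone, 101 in DESeq2, 311 without a filter, 4 with all 8 libraries and 5 to 245 leaving out each library. Within rhau-sko the count of 6 became 382, 733, 3 and 5 to 837 under DESeq2, no filter, all 8 libraries and leaving out each library. For the difference between genotypes the 6 became 58 in DESeq2, 272 without a filter, 0 with all 8 libraries (edgeR, with 697 higher and 240 lower at an unadjusted p under 0.05) and 30 to 217; without c DRB replicate 3 or rhau-sko replicate 5 it could not be fitted. The cause of these shifts was not tested. Herpud1 passed the adjusted threshold in 14 of 15 alternatives; without the genotype term its difference was -3.35. Neither Herpud1 nor C730034F03Rik changed sign under any of these; genes near 0 did, such as Atf4, with the same sign in 12 of 15. With 1 or 2 libraries in a group, the number of libraries limits precision for abundant genes, and depth limits it for genes of few counts. No paired analysis was possible because the replicate numbers of these libraries do not repeat across the groups.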
